A study of Homo sapiens with 16 samples.

Results

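The response to ultraviolet C light (UV) of U2OS cells carrying hairpins against both PIP4K2A and PIP4K2B was compared with that of U2OS cells carrying a hairpin against PIP4K2B alone. U2OS is an established human line from a bone sarcoma. The members are the 8 libraries, of 16 in the series, that form 4 groups of 2: shPIP4K2B and shPIP4K2AB cells, each untreated or collected 6 h after UV-C at 30 J/m2. Each group shares the stable knockdown of PIP4K2B, growth in puromycin and RNA depleted of ribosomal RNA, and the quantity compared is the UV response of the double knockdown minus that of the PIP4K2B knockdown. Other differences between the 2 lines cannot be told apart from the added PIP4K2A hairpin. The labels give no hairpin sequence and no number of clones. They also do not say that replicates were separate cultures, so the spread on which the p-values rest may be technical. No empty-vector library enters the comparison.

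PIP4K2A, PIP4K2B and PIP4K2C encode the type II phosphatidylinositol phosphate kinases, which phosphorylate the scarce lipid PI5P and so limit its level. PIP4K2B has a nuclear pool that is a known target of stress-activated p38 kinase after UV. UV-C joins neighbouring pyrimidines in DNA, stops RNA polymerase II at the damage and induces stress genes such as those of the AP-1 transcription factors. It also stalls DNA replication, on which the messenger RNAs of replication-dependent histones rely for their stability.

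The 8 libraries held 28.4 to 36.0 M expected counts, and mitochondrial genes took 2.20 to 3.43% of them. Levels are given as CPM, a gene's count scaled to its library's total. Differences are log2 values from edgeR's quasi-likelihood fit of the 8 libraries, which also applies a composition factor (TMM) per library. These factors were 1.09 to 1.11 in the untreated and 0.891 to 0.918 in the UV libraries, so a gene with the same CPM before and after UV has a fitted UV response above 0. The collagen gene COL1A1 and the matrix gene SPARC, which bone-forming cells express, stood at 1354 to 2678 and at 937 to 1277 CPM. The osteoblast transcription factor gene RUNX2 stood at 14.4 to 60.1 CPM, whereas BGLAP, which encodes osteocalcin, was at most 0.607 CPM. Of the 14 osteoblast lineage genes listed, 6 had a mean under 1 CPM, and the 9 tested summed to 2440 to 3750 CPM per library. Of the lists for other cell types, blood cell markers summed to 7.71 to 13.4 CPM per library and endothelial markers to 6.60 to 12.3 CPM. Epithelial markers summed to 468 to 705 CPM, mostly the keratin genes KRT8 and KRT18. Fewer cells in a given state and less RNA per cell cannot be told apart in these bulk samples.

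The replicates were not equally far apart. The 2 double knockdown UV libraries differed by little more than counting noise, with a chi-square of 1.41 per gene, against 3.58 for the PIP4K2B UV pair and 6.40 and 6.31 for the untreated pairs. The test still found a difference between them (chi-square p = 2.22e-176 over 12282 genes). Over so many genes it detects any small excess over counting noise, so it cannot show whether they were separate cultures. They were kept as 2 libraries, and a fit with both summed to 1 library is given beside the results. The biological coefficient of variation within groups was 1.46% for that pair, 4.79% for the PIP4K2B UV pair, and 9.22 and 7.25% for the untreated PIP4K2B and double knockdown pairs.

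The 2 UV responses were close to each other. Of 20406 genes tested, 22 differed in UV response at a Benjamini-Hochberg adjusted p under 0.05 in edgeR, which is 0.108% of the genes. The response was higher in the double knockdown for 4 of them (0.0196%) and lower for 18 (0.0882%), and 1751 genes (8.58%) had an unadjusted p under 0.05. With no filter on low counts 277 genes were called, 112 higher and 165 lower, and DESeq2 called 58, 13 higher and 45 lower. Fits that also held other lines had a larger spread and no calls: over 12 knockdown libraries, 15 libraries and 16 libraries the common coefficient of variation was 11.7, 11.3 and 41.9% against 6.30%, and the smallest adjusted p was 0.18, 0.0972 and 1. In these fits 671, 796 and 79 genes had an unadjusted p under 0.05. Untreated empty-vector replicate 1, which only the 16-library fit held, had 1.28 M expected counts, 14.6% of them mitochondrial. Replicate 2 had 28.6 M and 2.30%. The coefficient of variation within groups was 139% for this pair and 23.7% for the PIP4K2A knockdown UV pair. A 13-library fit, which leaves out untreated empty-vector replicate 1 and both PIP4K2A knockdown UV libraries, called 9 genes, each of them among the 22. Every one of the 22 kept the sign of its difference in each of the 20 alternative fits. Each of those fits reuses libraries that chose the 22, so the signs could hardly have changed.

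Among 11566 genes with a mean of at least 5 CPM, the median difference of responses was 0.0002 and 90% of the genes lay between -0.306 and 0.26 (5th and 95th percentiles). The median SE was 0.115. The difference exceeded 1.5-fold in 95 genes and 2-fold in 18. Its 95% interval lay within 1.5-fold in either direction for 10045 genes (86.8%) and within 2-fold for 11434 (98.9%). Across these genes the 2 responses correlated at 0.938 (Pearson) and 0.932 (Spearman); the genes share the same 8 libraries and are not independent replicates. Counts with known changes of the same comparison were also simulated. At 5 CPM and above, 56.7% of changes of 1.5-fold and 92% of changes of 2-fold were recovered. Over all levels, 34 and 46% of such changes were recovered, and 56 and 76% of changes of 3-fold and 4-fold, with 50 changes of each size. Also over all levels, 16 genes were called falsely with 20206 tested. These false calls arose in a simulation where many planted changes were also called. The adjusted p threshold admits more false calls when more genes are called. The number of false calls therefore cannot show how many of the 22 calls in the data are false.

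UV raised 5358 genes and lowered 5019 in the double knockdown (edgeR, 26.3 and 24.6% of the genes tested), and raised 5081 and lowered 4903 in the PIP4K2B knockdown (24.9 and 24.0%). Of the genes raised, 4249 were raised in both lines, 79.3% of the first list and 83.6% of the second. Of those lowered, 3898 were shared, 77.7 and 79.5% of the lists, and 21 genes passed in opposite directions. These splits depend on the scaling: relative to cytosolic ribosomal protein genes, UV raised 178 and lowered 15671 genes in the double knockdown and raised 196 and lowered 15841 in the PIP4K2B knockdown. That scaling moves the median UV response of all genes to -0.828 in the double and -0.89 in the PIP4K2B knockdown, from -0.002 and -0.013. It moves the difference of responses by little, to a median of 0.043 from -0.009, and the sign of a response within a line is given below with both scalings where they disagree.

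**Figure D1:**
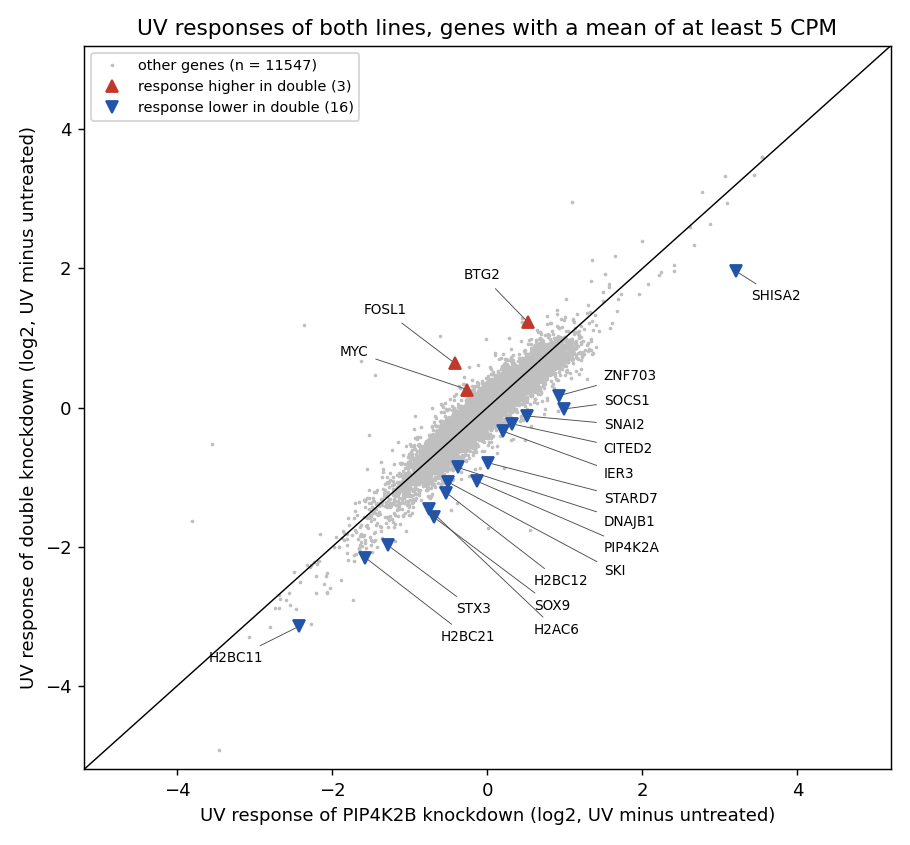
UV response of the PIP4K2B knockdown (x axis) against that of the double knockdown (y axis), both as log2 of UV over untreated with TMM scaling, for the 11566 genes with a mean of at least 5 CPM. Grey points are genes that did not pass the test of the difference, red triangles the 3 with a higher and blue triangles the 16 with a lower response in the double knockdown, and the line marks equal responses; most genes lie along it.

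The targeted genes come first. PIP4K2A (ENSG00000150867; GRCh38 chromosome 10, 22534849 to 22714555, minus strand), the target of the added hairpin, stood at 56.3 and 60.6 CPM in untreated and at 43.2 and 44.5 CPM in UV-treated PIP4K2B knockdown cells. The untreated double knockdown held 22.9 CPM in both libraries, and UV brought this to 9.11 and 9.07 CPM. The double knockdown libraries were thus lowest in each condition, and the groups did not overlap. The UV response was -1.06 in the double knockdown and -0.14 in the PIP4K2B knockdown, where it did not pass the test. With ribosomal protein scaling the responses were -1.88 and -1.02, and both passed. The difference was -0.92 (SE 0.103, edgeR adjusted p = 0.00296, n = 2 per group). Measured between the lines, PIP4K2A differed by -1.38 log2 untreated and by -2.30 after UV, double minus PIP4K2B knockdown. The gap between the lines was thus wider after UV. The call held in each of the 8 fits that left out 1 library.

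PIP4K2B (ENSG00000276293; chromosome 17, 38765689 to 38800126, minus strand), which is targeted in both lines, went from 26.6 and 23.7 CPM to 14.5 and 14.99 CPM with UV in the PIP4K2B knockdown. In the double knockdown it went from 17.3 and 19.3 CPM to 11.4 and 12.5 CPM. Its responses, -0.50 and -0.33, differed by 0.16 (SE 0.138, edgeR adjusted p = 0.762). PIP4K2C (chromosome 12, 57591174 to 57603418, plus strand), which no hairpin targets, stood in the PIP4K2B knockdown at 65.8 and 69.6 CPM before UV and 71.9 and 68.8 CPM after it. Every double knockdown library was higher, with 102 and 108 CPM before and 113 and 110 CPM after UV. The difference of its responses was 0.04 (SE 0.0863, adjusted p = 0.918). Of the 8 PIP4K and PIP5K kinase genes tested, PIP4K2A was lower and the other 7 did not pass. The list's median difference was -0.06 against -0.009 over all genes. None of the 51 other phosphoinositide kinase and phosphatase genes passed, with differences from -0.28 to 0.298.

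**Figure D2:**
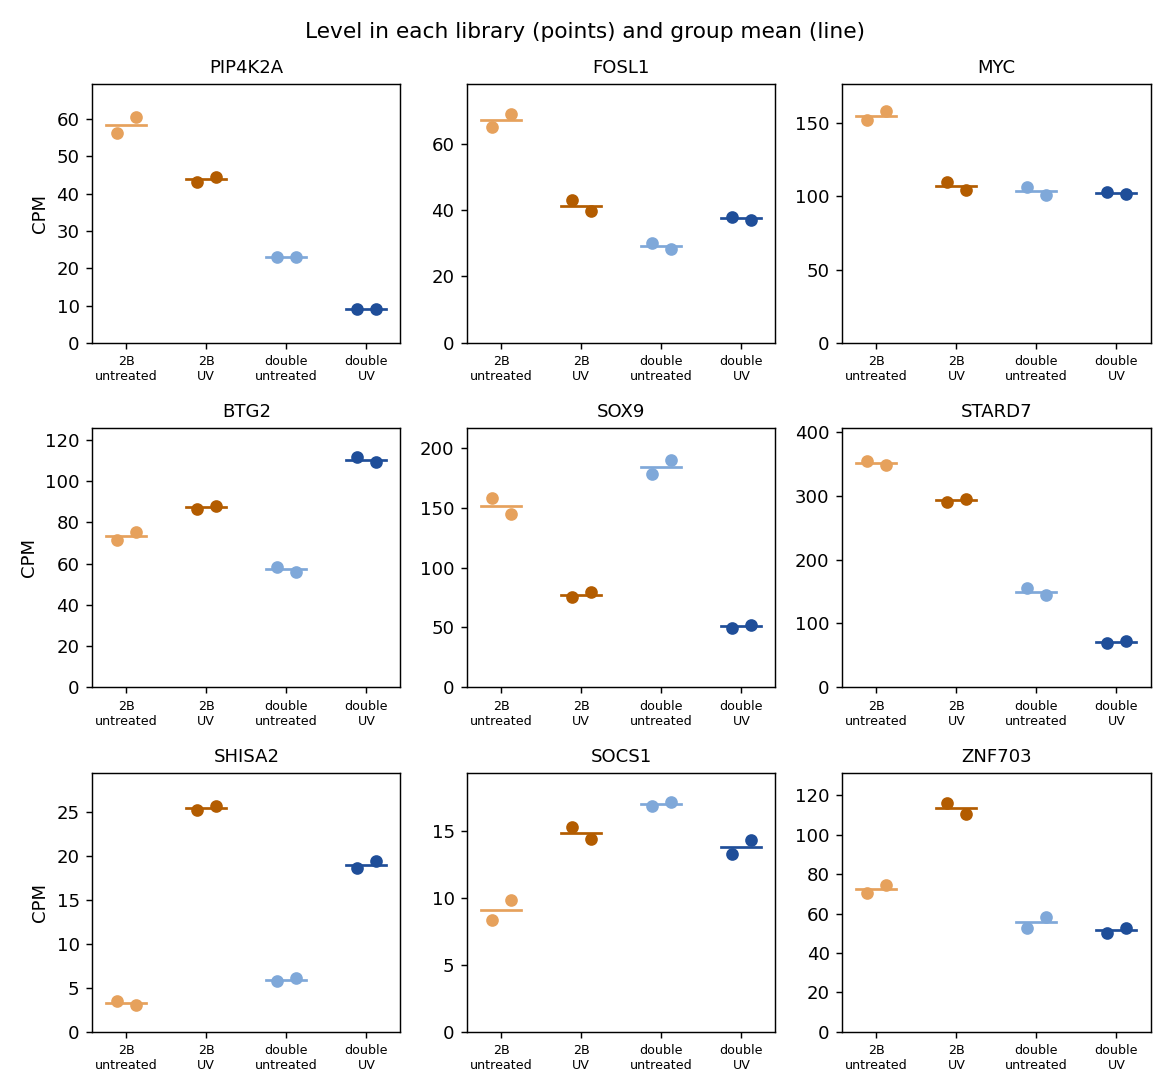
Level in CPM (y axis, starting at 0) of 9 genes whose UV response differed, in the PIP4K2B knockdown (2B, orange) and the double knockdown (blue), untreated and after UV. Points are the 2 libraries of a group and lines their mean; FOSL1 fell with UV in CPM in the PIP4K2B knockdown and rose in the double knockdown, and SOX9 fell further in the double knockdown.

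The response of 3 genes at 5 CPM or more was higher in the double knockdown: FOSL1, MYC and BTG2. FOSL1 (chromosome 11, 65892049 to 65900573, minus strand) encodes FRA1, a subunit of the AP-1 transcription factor. It fell from 65.1 and 69.0 CPM to 42.9 and 39.7 CPM with UV in the PIP4K2B knockdown. It started lower in the double knockdown, at 30.2 and 28.4 CPM, and stood at 38.0 and 37.1 CPM after UV. The untreated groups were therefore far apart, and after UV they lay within a few CPM of each other, without overlap. The responses were -0.42 and 0.64 (-1.30 and -0.19 with ribosomal protein scaling), a difference of 1.06 (SE 0.0998, edgeR adjusted p = 0.00199). Between the lines, FOSL1 differed by -1.23 untreated and by -0.17 after UV, where it did not pass the test. The call held without each library in turn and in 17 of 20 alternatives, the exceptions being the 12-, 15- and 16-library fits.

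MYC, the transcription factor gene that drives cell growth, showed the same shape at a smaller size. In the PIP4K2B knockdown it went from 152 and 158 CPM to 110 and 104 CPM. In the double knockdown it went from 107 and 101 CPM to 103 and 102 CPM, so 3 of the 4 groups lay near each other and untreated PIP4K2B knockdown cells stood above them. The responses were -0.26 and 0.26 (-1.14 and -0.57 with ribosomal protein scaling), a difference of 0.52 (SE 0.0835, adjusted p = 0.0354). MYC missed the threshold without either PIP4K2B UV library, either double knockdown UV library or double knockdown untreated replicate 2, with differences of 0.47 to 0.57 and adjusted p of 0.0954 to 0.278. It also missed it with ribosomal protein scaling (0.57, adjusted p = 0.155), and it passed in 7 of 20 alternatives.

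BTG2 (chromosome 1, 203305491 to 203309602, plus strand), a p53-induced antiproliferative gene that promotes the decay of messenger RNA, also had the higher response in the double knockdown. It rose from 71.6 and 75.4 CPM to 86.5 and 88.1 CPM in the PIP4K2B knockdown, a response of 0.52 (-0.35 with ribosomal protein scaling). The rise in the double knockdown was from 58.6 and 56.1 CPM to 112 and 109 CPM, a response of 1.23 (0.40 with ribosomal protein scaling). The difference was 0.70 (SE 0.0799, edgeR adjusted p = 0.00296), and it held without each library in turn. Untreated, the double knockdown had the lower level, and after UV it had the higher one. FOSL1, MYC and BTG2 had in common a lower untreated level in the double knockdown and a gap between the lines that was smaller after UV.

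With only 3 such calls at this level, the genes with the next smallest p in the same direction are given as values that did not pass. GPR3, which encodes an orphan G protein-coupled receptor, differed by 0.77 (SE 0.135, edgeR adjusted p = 0.0668), with responses of 2.12 in the double and 1.35 in the PIP4K2B knockdown. SESN2, a p53- and stress-induced inhibitor of TORC1 signalling, differed by 0.50 (adjusted p = 0.121), AMIGO2 by 0.41 (0.113), PSG4 by 0.72 (0.0802) and TPRG1L by 0.64 (0.121). NPIPA9 differed by 1.01 (adjusted p = 0.0779), and as a member of a family of near-identical copies its counts are uncertain.

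Of 34 immediate early and AP-1 genes tested, 2 had a higher response in the double knockdown, FOSL1 and BTG2, and 1 a lower one, IER3; 0.108% of all genes were called. Of the 34, 20 lay below 0, beside 51.6% of all genes, and the median difference was -0.132 against -0.009 over all genes. UV raised 16 of them and lowered 10 in the double knockdown, and raised 17 and lowered 8 in the PIP4K2B knockdown, beside 26.3 and 24.6% of all genes in the double and 24.9 and 24.0% in the PIP4K2B knockdown. Other AP-1 members, chosen here after their values were seen, show the range. FOS rose in both lines, with responses of 3.10 and 2.77 that differed by 0.33 (SE 0.173, edgeR adjusted p = 0.621). FOSL2 went from 295 and 311 CPM to 149 and 144 CPM in the PIP4K2B knockdown, and from 425 and 470 CPM to 187 and 188 CPM in the double knockdown. The difference for FOSL2 was -0.21 (SE 0.0907, adjusted p = 0.565), of opposite sign to FOSL1. JUN differed by -0.55 (SE 0.118, adjusted p = 0.145), JUNB by -0.13, JUND by -0.28 and ATF3 by -0.06, with no call among them. The strong inductions of PTGS2 (3.35 and 3.44) and ARC (2.94 and 3.09) differed by -0.09 (SE 0.167) and -0.16 (SE 0.105). Of 37 p53 target genes BTG2 alone was called, and the median difference was 0.052. CDKN1A, which encodes the p53-induced cell cycle inhibitor p21, differed by 0.10 (SE 0.0784, adjusted p = 0.74).

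**Figure D3:**
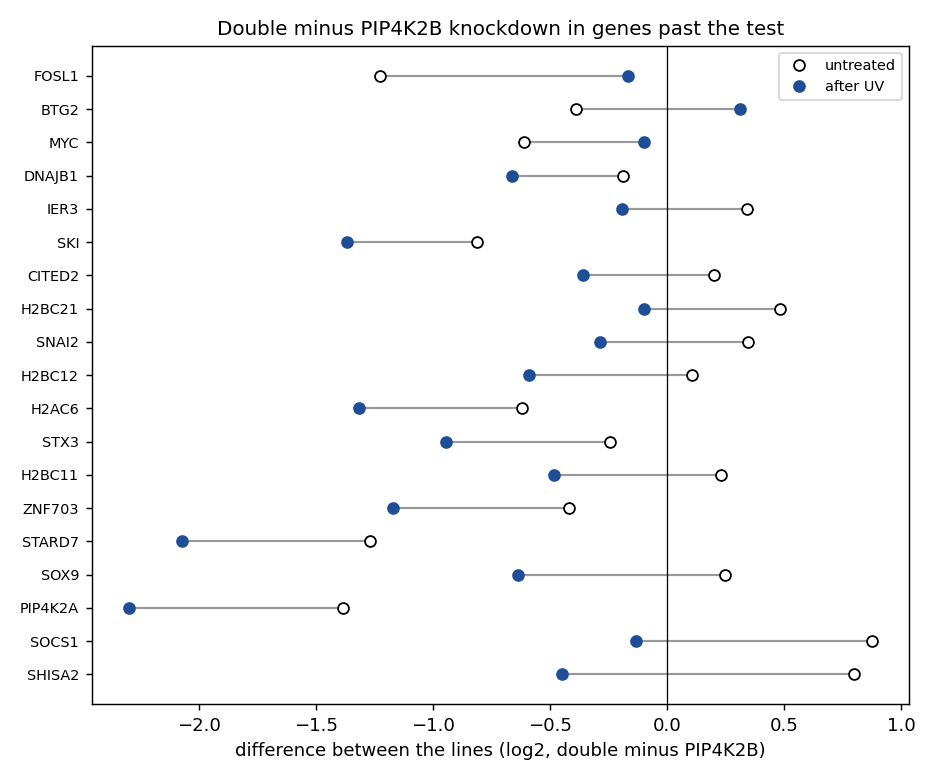
Difference between the lines (x axis, log2, double minus PIP4K2B knockdown) untreated (open circles) and after UV (filled circles) for the 19 genes at 5 CPM or more whose UV response differed. The upper 3 genes move to the right with UV and the other 16 to the left; for FOSL1 and MYC the gap nears 0 after UV, whereas for PIP4K2A and STARD7 it widens.

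The response of 18 genes was lower in the double knockdown. SOX9 (chromosome 17, 72121020 to 72126420, plus strand), the master transcription factor of cartilage, fell from 158 and 145 CPM to 75 and 79.9 CPM in the PIP4K2B knockdown. The double knockdown showed a fall from 178 and 190 CPM to 49.3 and 52.3 CPM. The order of the lines was thus reversed by UV, with no overlap in either condition. The responses were -0.69 and -1.57, a difference of -0.88 (SE 0.0912, edgeR adjusted p = 0.002), which held without each library in turn. SNAI2, which encodes the mesenchymal repressor SLUG, went from 26.4 and 25.7 CPM to 31.0 and 30.3 CPM in the PIP4K2B knockdown, and from 34.9 and 32.8 CPM to 25.3 and 26.0 CPM in the double knockdown. Its responses were 0.51 and -0.12 (-0.37 and -0.95 with ribosomal protein scaling), a difference of -0.63 (SE 0.101, adjusted p = 0.0338). SNAI2 missed the threshold in 6 of the 8 fits without 1 library, those without either double knockdown library of either condition or either PIP4K2B UV library, at -0.67 to -0.60 and adjusted p of 0.0533 to 0.281. It also missed it with ribosomal protein scaling (-0.58, adjusted p = 0.295). Correcting for the length of the isoforms in each library moved it to -1.05 (adjusted p = 0.0975).

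ZNF703, a transcriptional corepressor gene, rose from 70.3 and 74.6 CPM to 116 and 111 CPM with UV in the PIP4K2B knockdown, and went from 52.5 and 58.5 CPM to 49.97 and 52.9 CPM in the double knockdown. The highest group was PIP4K2B knockdown after UV. The responses were 0.92 (0.04 with ribosomal protein scaling) and 0.17, which did not pass (-0.65 with that scaling), and they differed by -0.75 (SE 0.098, edgeR adjusted p = 0.00698). Without PIP4K2B UV replicate 1 or double knockdown UV replicate 1 the adjusted p for ZNF703 was 0.0755 or 0.0804, with differences of -0.70 and -0.71.

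SKI, a corepressor that restrains TGF-beta signalling, fell from 103 and 103 CPM to 60.5 and 58.9 CPM in the PIP4K2B knockdown and from 57.3 and 62.9 CPM to 23.5 and 23.8 CPM in the double knockdown. The difference was -0.55 (SE 0.0903, edgeR adjusted p = 0.0368). The call for SKI was lost in 6 of the 8 fits without 1 library, those without PIP4K2B untreated replicate 1, either PIP4K2B UV library, double knockdown untreated replicate 2 or either double knockdown UV library, at -0.58 to -0.48 and adjusted p of 0.0666 to 0.325. With ribosomal protein scaling SKI differed by -0.50 (adjusted p = 0.178), and the length correction moved it to -1.21 (adjusted p = 0.556). SKI was the sole call among 28 TGF-beta and BMP feedback genes, whose median difference was -0.134. CITED2, a coregulator that binds the CBP and p300 acetyltransferases, went from 85.6 and 88.8 CPM to 90.9 and 89.2 CPM in the PIP4K2B knockdown. It went from 104 and 101 CPM to 71.2 and 72.2 CPM in the double knockdown. The responses were 0.32 (-0.56 with ribosomal protein scaling) and -0.24, a difference of -0.56 (SE 0.0781, adjusted p = 0.0139). CITED2 missed the threshold without PIP4K2B UV replicate 1 or either double knockdown UV library, at -0.56 to -0.53 and adjusted p of 0.122 to 0.196, and with ribosomal protein scaling (-0.51, adjusted p = 0.188). It was the sole call among 24 FOXO target and insulin signalling genes.

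SOCS1 (chromosome 16, 11254405 to 11256200, minus strand), the inducible inhibitor of cytokine receptor signalling, rose from 8.32 and 9.85 CPM to 15.3 and 14.4 CPM with UV in the PIP4K2B knockdown. In the double knockdown it was already at 16.9 and 17.2 CPM before UV, and 13.3 and 14.3 CPM were measured after it. The responses were 0.99 (0.11 with ribosomal protein scaling, not past the test) and -0.02, which did not pass (-0.85 with that scaling), a difference of -1.01 (SE 0.149, edgeR adjusted p = 0.0168). SOCS1 missed the threshold without PIP4K2B UV replicate 1, double knockdown untreated replicate 2 or either double knockdown UV library, at -1.06 to -0.94 and adjusted p of 0.0741 to 0.163. IER3, an immediate early gene that affects survival under stress, went from 76.6 and 79.3 CPM to 72.6 and 74.97 CPM in the PIP4K2B knockdown, and from 101 CPM in both libraries to 65.7 and 66.0 CPM in the double knockdown. Its responses were 0.20 (-0.68 with ribosomal protein scaling) and -0.34, a difference of -0.53 (SE 0.0765, adjusted p = 0.015). IER3 missed the threshold without any 1 of the 4 UV libraries, at -0.54 to -0.52 and adjusted p of 0.0845 to 0.201, and with ribosomal protein scaling (-0.48, adjusted p = 0.242). None of the 26 NF-kB feedback and cytokine genes passed, with a median difference of -0.112.

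SHISA2 (chromosome 13, 26044597 to 26051031, minus strand), which encodes an endoplasmic reticulum protein that dampens WNT and FGF signalling, had the largest difference among the 19. It rose from 3.55 and 3.10 CPM to 25.3 and 25.7 CPM in the PIP4K2B knockdown and from 5.79 and 6.10 CPM to 18.7 and 19.4 CPM in the double knockdown. The double knockdown thus started higher and ended lower. The responses were 3.21 and 1.96, a difference of -1.25 (SE 0.149, edgeR adjusted p = 0.00393), which held without each library in turn.

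STARD7 (chromosome 2, 96184859 to 96208825, minus strand), which encodes a transfer protein that carries phosphatidylcholine to mitochondria, had the widest gap between the UV-treated lines after PIP4K2A among the 19. It went from 355 and 348 CPM to 290 and 296 CPM in the PIP4K2B knockdown, a response of 0.01 that did not pass (-0.87 with ribosomal protein scaling, past the test). In the double knockdown it fell from 155 and 144 CPM to 69.8 and 72.3 CPM, a response of -0.79. The difference was -0.81 (SE 0.0818, edgeR adjusted p = 0.002) and held without each library in turn. Between the lines STARD7 differed by -1.27 untreated and by -2.07 after UV, beside -1.38 and -2.30 for the targeted PIP4K2A. STX3, which encodes a syntaxin of apical membrane fusion, fell from 82.6 and 81.7 CPM to 27.9 and 28.0 CPM in the PIP4K2B knockdown and from 72.4 and 69.7 CPM to 14.3 and 15.3 CPM in the double knockdown. The difference for STX3 was -0.70 (SE 0.0908, adjusted p = 0.00698), and it was -0.68 and -0.65 without PIP4K2B UV replicate 1 and double knockdown UV replicate 1, with adjusted p of 0.0714 and 0.103. With ribosomal protein scaling STX3 missed the threshold (-0.65, adjusted p = 0.124). DNAJB1, which encodes the HSP40 cochaperone of HSP70, fell from 143 and 147 CPM to 93.6 and 90.0 CPM in the PIP4K2B knockdown and from 131 and 130 CPM to 59.3 and 59.2 CPM in the double knockdown. Its difference was -0.47 (SE 0.0788, adjusted p = 0.0415), the smallest of the 19, and it missed the threshold in 6 of the 8 fits without 1 library, those without PIP4K2B untreated replicate 1, double knockdown untreated replicate 2 or any 1 of the 4 UV libraries, at -0.51 to -0.43 and adjusted p of 0.0546 to 0.418. With ribosomal protein scaling it missed it as well (-0.42, adjusted p = 0.374). DNAJB1 was the sole call of 22 heat shock chaperone genes, whose median difference was 0.041. The HSP70 genes HSPA1A and HSPA1B, chosen after their values were seen, differed by -0.39 (adjusted p = 0.197) and -0.43 (0.212), and as near-identical copies they may share reads.

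Replication-dependent histone genes gave 4 of the 18 lower responses, more than any other of the 35 lists. They were 4 of 44 histone genes tested, beside 0.0882% of all genes called lower. The typical messenger RNA of this class ends in a stem-loop in place of a poly(A) tail and can be kept in libraries made by ribosomal RNA depletion. The annotated genes H2AC6 (chromosome 6, 26124145 to 26139116), H2BC11 (chromosome 6, 27125897 to 27132750) and H2BC21 (chromosome 1, 149884459 to 149886652) are longer than H2BC12 (chromosome 6, 27146418 to 27146798). Their counts may include longer transcripts of another kind, which was not tested. The 150 bases upstream of the RefSeq transcript start of 3 of the 4 genes are shown to let the shared promoter architecture be seen; capitals mark CCAAT boxes on either strand (CCAAT or ATTGG) and the TATA motif TATAAA. They come from RefSeq on GRCh38.p14, are written 5′ to 3′ on the gene's strand, and lie at chr6:27132796-27132945 (H2BC11), chr6:27146859-27147008 (H2BC12) and chr1:149886683-149886832 (H2BC21), each on the minus strand.
H2BC11: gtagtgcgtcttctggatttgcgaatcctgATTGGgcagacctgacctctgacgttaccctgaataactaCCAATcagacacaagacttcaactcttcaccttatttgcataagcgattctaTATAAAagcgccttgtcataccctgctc
H2BC12: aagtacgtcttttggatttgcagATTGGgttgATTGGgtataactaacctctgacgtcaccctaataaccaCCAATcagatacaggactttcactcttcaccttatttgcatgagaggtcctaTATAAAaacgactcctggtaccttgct
H2BC21: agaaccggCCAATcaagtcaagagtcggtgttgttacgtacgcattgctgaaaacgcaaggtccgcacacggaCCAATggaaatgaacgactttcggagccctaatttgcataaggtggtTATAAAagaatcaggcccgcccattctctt

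In these windows TATAAA begins 28, 27 and 30 bases before the start (positions -28, -27 and -30), and the CCAAT box nearest to it begins at positions -80, -79 and -77. Over windows from 250 bases before to 50 after the start, TATAAA on either strand was found for 31 of the 41 histone genes matched, against 10.7% of 35116 windows, and a CCAAT box for 32 of 41, against 32.0%. Such matches describe letters in the window and are not evidence of binding. The 4 called histone genes hold both motifs, as most of the matched histone genes hold each. Of the 22 called genes 13 matched a window, and none of these held the AP-1 motif TGANTCA, found for 8.06% of genes.

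H2BC11 went from 200.3 and 199.5 CPM to 29.6 and 31.7 CPM in the PIP4K2B knockdown, and from 229 and 251 CPM to 23.8 and 20.9 CPM in the double knockdown. Its responses of -2.43 and -3.15 differed by -0.71 (SE 0.102, edgeR adjusted p = 0.015). H2BC21 went from 318 and 346 CPM to 92.8 and 91.4 CPM in the PIP4K2B knockdown, and from 476 and 474 CPM to 86.7 and 88.8 CPM in the double knockdown. Here the untreated groups were far apart and the UV groups nearly met, and the responses of -1.58 and -2.16 differed by -0.58 (SE 0.0851, adjusted p = 0.0168). H2BC12 went from 491 and 483 CPM to 283 and 275 CPM in the PIP4K2B knockdown, and from 493 and 580 CPM to 185 and 193 CPM in the double knockdown. Its untreated groups did not differ by the test, and the difference of responses was -0.70 (SE 0.102, adjusted p = 0.0168). H2AC6, the one H2A gene of the 4, went from 240.0 and 256.9 CPM to 122 and 121 CPM in the PIP4K2B knockdown, and from 159 and 172 CPM to 49.5 and 50 CPM in the double knockdown. The difference for H2AC6 was -0.70 (SE 0.0878, adjusted p = 0.00604).

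None of these 4 calls held without each library in turn. H2BC12 and H2BC21 missed the threshold without any 1 of the 4 UV libraries, at -0.72 to -0.66 (adjusted p 0.0515 to 0.196) and at -0.60 to -0.55 (0.0534 to 0.231). H2BC11 missed it without either PIP4K2B UV library, double knockdown untreated replicate 2 or double knockdown UV replicate 2, at -0.75 to -0.62 (0.0533 to 0.18). H2AC6 missed it without PIP4K2B UV replicate 1 or either double knockdown UV library, at -0.70 to -0.67 (0.0682 to 0.0804). With ribosomal protein scaling H2BC11 (-0.66, adjusted p = 0.0975) and H2BC21 (-0.53, 0.161) missed it. With the correction for isoform length all 4 missed it: H2BC11 (-0.54, edgeR adjusted p = 0.606), H2BC12 (-0.66, 0.487), H2AC6 (-0.65, 0.186) and H2BC21 (-0.57, 0.151). With the 2 double knockdown UV libraries summed, none of the 4 passed, with adjusted p of 0.075 for H2AC6 and H2BC11, 0.196 for H2BC12 and 0.235 for H2BC21, at differences of -0.70 to -0.56.

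Of 63 listed histone genes 44 were tested, 0 were called higher and 4 lower (edgeR), and 39 of the 44 had a value below 0. Over all genes, 0.0196% were called higher and 0.0882% lower, and 51.6% lay below 0. UV lowered 42 of the 44 in each line, with median responses of -2.04 in the double and -1.84 in the PIP4K2B knockdown; the fall was in the same direction for the summed level in CPM. That sum went from 6910 and 7140 CPM to 1950 and 1950 CPM in the PIP4K2B knockdown and from 6820 and 7590 CPM to 1560 and 1580 CPM in the double knockdown. The untreated groups overlapped and the UV groups did not. The median difference of responses was -0.237 (-0.176 with ribosomal protein scaling), and -0.201 over the 40 members at 5 CPM or more, of which 35 lay below 0. Over all genes at that level the median was 0.0002, and 5773 of 11566 lay below 0. Histone genes that did not pass ranged from -1.46 for H2AC15 to 2.17 for H4C12, whose replicates disagree. H1-2, the abundant linker histone gene, differed by -0.49 (SE 0.0973, adjusted p = 0.104), and the value for H2AC15 had an SE of 0.695. Many of these genes are near-identical in sequence, so the split of reads among them is uncertain.

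**Figure D4:**
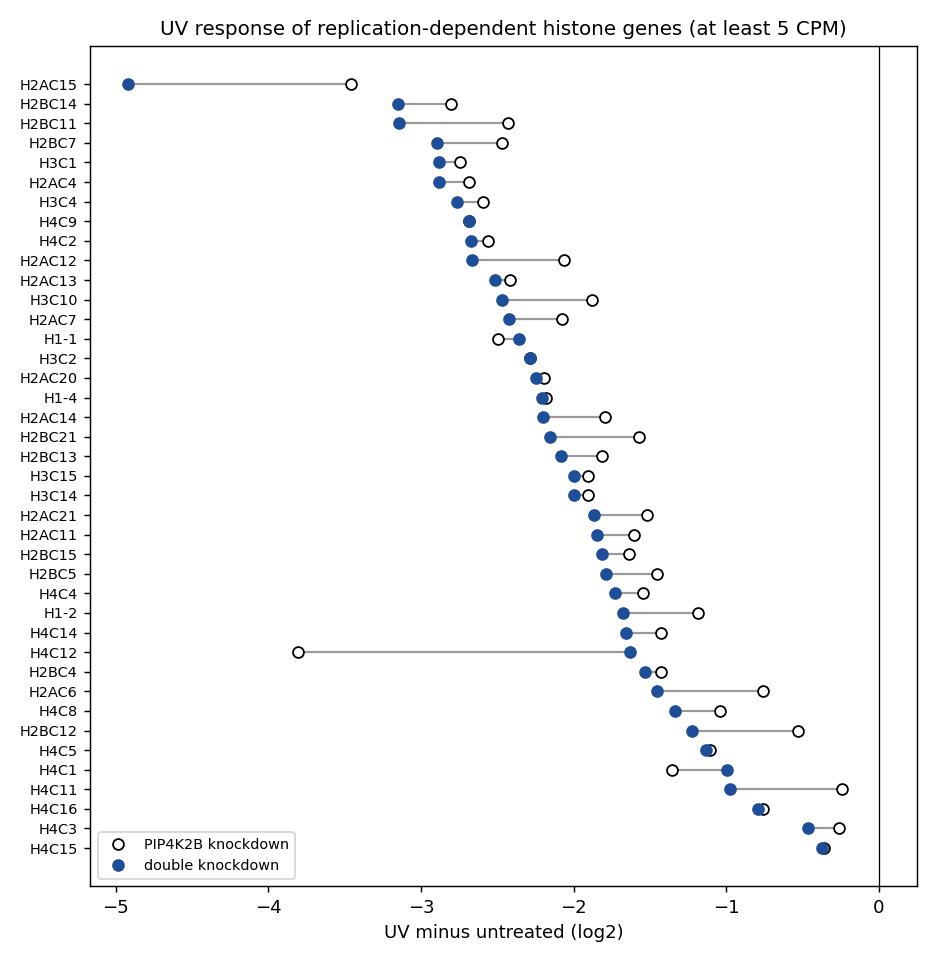
UV response (x axis, log2 of UV over untreated, TMM scaling) of the 40 replication-dependent histone genes at 5 CPM or more in the PIP4K2B knockdown (open circles) and the double knockdown (filled circles), sorted by the double knockdown. In 35 of them the filled circle lies to the left; H4C12, with the widest gap to the right, has replicates that disagree.

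The other 3 called genes, FOXD1-AS1, PDCD6-AHRR and ENSG00000257379, had a mean under 5 CPM and fall outside the rule for naming genes. FOXD1-AS1, an antisense gene, went from 1.13 and 0.666 CPM to 0.0687 and 0 CPM in the PIP4K2B knockdown, and from 0.225 and 0.573 CPM to 1.16 and 0.744 CPM in the double knockdown (edgeR adjusted p = 0.0337). It missed the threshold in 5 of the 8 fits without 1 library, those without PIP4K2B untreated replicate 1, double knockdown untreated replicate 1, either PIP4K2B UV library or double knockdown UV replicate 1, with adjusted p of 0.0613 to 0.159. PDCD6-AHRR, a readthrough gene over 2 neighbours whose reads it can share, was at 0 in both untreated PIP4K2B libraries, at 2.05 and 2.13 CPM after UV, and at 1.19 and 1.11 and then 0.810 and 1.35 CPM in the double knockdown (adjusted p = 0.00204). ENSG00000257379, which has no symbol, stood at 2.59 and 1.82 and then 2.74 and 2.64 CPM in the PIP4K2B knockdown, and at 3.55 and 6.31 and then 0.567 and 0.380 CPM in the double knockdown (adjusted p = 0.00393). Expected counts at this level depend on how reads were split among overlapping genes.

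The difference of responses is also the change with UV in the gap between the lines. The lines differed in 6102 genes untreated (29.9%) and in 6780 after UV (33.2%), and 4567 passed in both conditions with the same sign, 74.8 and 67.4% of the lists, whereas 17 passed with opposite signs. Of the 22 genes, 9 are among those 17: BTG2, which was lower untreated and higher after UV in the double knockdown, and CITED2, ENSG00000257379, H2BC11, IER3, PDCD6-AHRR, SHISA2, SNAI2 and SOX9, which were higher untreated and lower after UV. Another 7 were lower in the double knockdown in both conditions, and there the gap widened: DNAJB1, H2AC6, PIP4K2A, SKI, STARD7, STX3 and ZNF703. For FOSL1 and MYC the untreated gap passed and the gap after UV did not, as it did not for H2BC21 and SOCS1. The test of the difference, not the change from past to short of a threshold, is what shows that the gap changed.

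How many genes hold a call depends on the libraries and the scaling. Without PIP4K2B untreated replicate 1 or 2, 34 and 61 genes were called, and without double knockdown untreated replicate 1, 41. Without PIP4K2B UV replicate 1, 9 were called, and without either double knockdown UV replicate, 13. With the 2 double knockdown UV libraries summed to 1, 10 genes were called, 8 of them among the 22: BTG2, ENSG00000257379, FOSL1, PDCD6-AHRR, PIP4K2A, SHISA2, SOX9 and STARD7. Ribosomal protein scaling left 13, among them the 8 just named. The correction for isoform length left 3, FOSL1, PDCD6-AHRR and PIP4K2A, at a coefficient of variation of 10.2%. In the 13-library fit the 9 were BTG2, CITED2, FOSL1, PIP4K2A, SHISA2, SOCS1, SOX9, STARD7 and STX3. FOSL1 and PIP4K2A are thus called in each of these fits that calls any gene.

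Of the 35 gene lists 7 held a call and 28 held none. Of 1081 distinct members tested 11 were called (1.02%), beside 0.108% of all genes. Of the 11566 genes at 5 CPM or more, 19 were called. The lists were chosen with earlier results of these data known, so the share of calls in them is no independent support. List medians ran from -0.266 to 0.098, against -0.009 over all genes. Cytosolic ribosomal protein genes had a median difference of -0.053 with no call among 79; UV raised 78 of them in the double and 79 in the PIP4K2B knockdown with TMM scaling, a direction set to 0 by construction when scaled to these genes themselves. Nuclear-encoded respiratory chain genes (77 tested) had a median of -0.079, lysosome and autophagy genes (49) of 0.022, nucleotide excision repair genes (34) of 0.023 and core spliceosome protein genes (40) of -0.032, each with no call. Blood cell markers had the lowest median, -0.266, with 8 of 14 members tested and a summed level of at most 13.4 CPM in every library; endothelial markers had -0.227 with 6 of 10 tested, and epithelial markers -0.186 with 12 of 17. KRT8 and KRT18 differed by -0.16 and -0.09 with no call. The part of these marker levels in the other results was not tested.

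**Figure D5:**
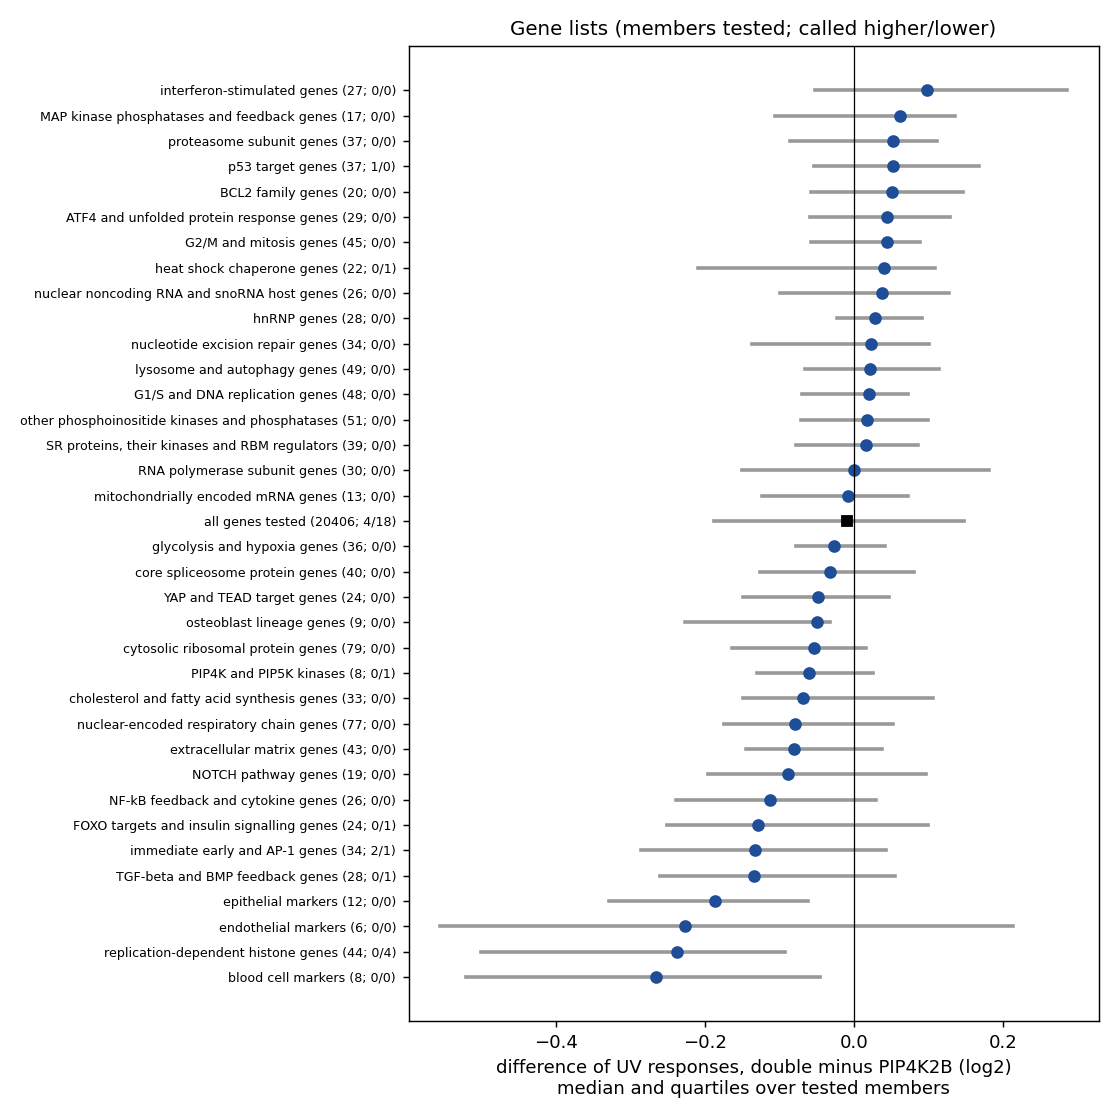
Median (points) and quartiles (bars) of the difference of UV responses (x axis, log2, double minus PIP4K2B knockdown) over the tested members of each gene list and over all genes tested (square). Labels give members tested and calls higher and lower; replication-dependent histone genes lie at -0.237 with 4 lower calls, and the one list with a lower median, blood cell markers, has 8 members.

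To compare the size of the responses on genes that neither line chose, genes changed by UV were taken from a separate fit of the PIP4K2A knockdown libraries. The PIP4K2A knockdown shares a targeted gene with the double knockdown and not with the PIP4K2B knockdown. The choice may therefore favour a larger response in the double knockdown, which was not tested. For 468 genes raised there, the median response was 0.793 in the double and 0.792 in the PIP4K2B knockdown, with a median difference of 0.043. Of the 468, 275 (58.8%) were higher in the double knockdown, beside 48.4% of all genes tested. The spread of the median difference between replicates, with 1 library per group, was 0.0635 (SD), wider than the difference itself. For 1075 genes lowered there, the medians were -1.265 and -1.145, and 725 (67.4%) were lower in the double knockdown, beside 51.6% of all genes, with a median difference of -0.116. Its spread was 0.0212. With ribosomal protein scaling the median differences of the raised and lowered genes were 0.096 and -0.065. The genes share the same 8 libraries and are not independent replicates. Of these, 3 of the raised and 7 of the lowered genes were called, beside 0.108% of all genes. By the length of the gene in the genome, the median difference was -0.042 under 10 kb (6352 genes, 14 called), -0.002 from 10 to 100 kb (10162 genes, 6 called) and 0.006 over 100 kb (3447 genes, 1 called). The value under 10 kb turned to 0.01 with ribosomal protein scaling and ran from -0.093 to 0.001 when 1 library was left out, so its sign was not stable.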

How the data were processed

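Total RNA of U2OS cells was sequenced after ribosomal RNA depletion with a directional kit, per the labels' protocols. Per the file headers, the authors deposited RSEM output, 1 table per library, with expected counts per gene and an effective length (other than a count), which is an average over a gene's isoforms. STAR, SAMtools, RSEM and the GRCh38 build are named in the submitters' processing notes, without their roles; a strand setting and an annotation release are not given in the sources used. Symbols were found for 60437 of 60666 identifiers, and GENCODE 29 gave coordinates for 58420.

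After rounding, the counts of the 8 libraries went into edgeR 4.0.16 under R 4.3.3 (filterByExpr at a minimum count of 10, TMM, 1 term per group, quasi-likelihood F test, Benjamini-Hochberg adjusted p under 0.05), with 4 residual degrees of freedom. The contrast was (double UV minus double untreated) minus (PIP4K2B UV minus PIP4K2B untreated). A standard error is the log2 value over the square root of F. The fit was tested on simulated data with 200 changed genes. Named genes were PIP4K2A, PIP4K2B and PIP4K2C, up to 15 calls in each direction at 5 CPM or more, the next smallest p to make 10 where fewer than 5 passed, and up to 4 calls of each list, or its 2 most abundant members; the text gives a part of them. The comparison, the members and the 35 gene lists were chosen with earlier results of these data known. Alternatives were RLE size factors, scaling to ribosomal protein genes, no filter, CPM above 1 in 2 libraries, DESeq2 1.42.0, fits of 12, 15 and 16 libraries, an offset for isoform length, a replicate block, and fits without each library. The 13-library fit and the summed double knockdown UV library were added after seeing the data. Promoters came from RefSeq (GRCh38.p14).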

Additional observations from a re-analysis of the deposited data

Results flagged for a closer look

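The UV response differed between the lines by the test of the difference itself in 22 genes, each of them described with its levels above. Higher in the double knockdown, as log2 differences, were FOSL1 (1.06), BTG2 (0.70) and MYC (0.52). Lower were SHISA2 (-1.25), SOCS1 (-1.01), PIP4K2A (-0.92), SOX9 (-0.88), STARD7 (-0.81), ZNF703 (-0.75), H2BC11 (-0.71), STX3 (-0.70), H2AC6 (-0.70), H2BC12 (-0.70), SNAI2 (-0.63), H2BC21 (-0.58), CITED2 (-0.56), SKI (-0.55), IER3 (-0.53) and DNAJB1 (-0.47). For 3 genes under 5 CPM only the edgeR adjusted p is given, since some of their libraries are at or near 0: FOXD1-AS1 (0.0337, higher), ENSG00000257379 (0.00393, lower) and PDCD6-AHRR (0.00204, lower). No explanation was tested for any of them.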

How the results depend on the processing

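Of the calls, 4 were higher and 18 lower, and these counts moved as follows (higher, then lower): 112 and 165 with no filter on low counts, 13 and 45 with DESeq2, 3 and 10 with ribosomal protein scaling, 1 and 2 with the isoform length offset, 2 and 7 over 13 libraries, 3 and 7 with the double knockdown UV libraries summed, and 0 and 0 over 12, 15 and 16 libraries. Leaving out 1 library gave 3 to 14 higher and 6 to 47 lower. DESeq2 gave no adjusted p for 5 of the 22. None of the 22 called differences changed sign in any of the 20 alternatives, which reuse the libraries that chose them and so could hardly change it.

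The numbers of the replicates showed no sign of pairing libraries across groups. In 6 pairs of groups, same-numbered libraries deviated with correlations of -0.313 to 0.09, with none over 0.1 and 2 under -0.1. Whether same-numbered libraries were handled together was not tested. The fit with the replicate block called 3 higher and 15 lower, and 17 of the 18 were among the 22.

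UV changed 15849 genes in the double and 16037 in the PIP4K2B knockdown with ribosomal protein scaling, and 267 and 173 over 16 libraries. The 16 libraries include untreated empty-vector replicate 1, with 1.28 M expected counts, 14.6% of them mitochondrial. Differences between the untreated lines numbered 3254, 3477 and 102 over 12, 15 and 16 libraries and 3787 with the length offset. After UV they numbered 3724, 4006, 150 and 4332, and 4408 to 7310 without 1 library. The median difference of genes lowered by UV was -0.065 with ribosomal protein scaling and -0.14 among those changed by at least 1 log2. By genomic span, ribosomal protein scaling gave 0.01 under 10 kb, 0.05 from 10 to 100 kb and 0.056 over 100 kb. Leaving out 1 library gave -0.093 to 0.001 under 10 kb and -0.017 to 0.017 from 10 to 100 kb, and over 100 kb the value was -0.016 without PIP4K2B untreated replicate 1 and -0.008 without double knockdown untreated replicate 2, so the sign changed in each class of span. The cause of these shifts was not tested.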

Other observations

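Some of the called genes stood apart in libraries that the comparison does not use. In the PIP4K2A knockdown, STARD7 went from 161 and 140 CPM to 51.1 and 71.2 CPM with UV, near its levels in the double knockdown, whereas the empty-vector UV libraries held 283 and 271 CPM. FOSL1 was 53.7 and 58.0 CPM in untreated PIP4K2A knockdown cells and 78.0 and 43.1 CPM in the 2 libraries after UV, so the replicates disagreed there. SOX9 was 148 and 139 CPM in the PIP4K2A knockdown after UV and 161 and 143 CPM in empty-vector cells after UV, above the 49.3 to 79.9 CPM of the UV libraries compared here. STX3 after UV was 37.5 and 39.2 CPM in the PIP4K2A knockdown and 21.5 and 19.6 CPM in empty-vector cells. These levels are given with no test.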
